A study of Mus musculus with 8 samples.

Results

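Siglecs are surface lectins of the immunoglobulin superfamily that bind sialic acid, the sugar that ends many glycan chains on mammalian cells. The Siglec family is described here as 7 genes chosen by symbol, Siglec1, Siglecf, Siglece, Siglecg, Siglech, Cd22 and Cd33, out of 35906 genes with a count. All 7 passed the filter on low counts, together with 15212 genes in all. RNA was sequenced from liver macrophages sorted as CD45+, CD31- and F4/80+ cells from wild-type BALB/c mice, in 4 libraries from mice given CCl4 (carbon tetrachloride, a hepatotoxin used to produce liver fibrosis) and 4 libraries from mice given vehicle. Both groups were of the same genotype and strain, and neither the CCl4 dose nor its duration is stated in the sources used here. Whether each library came from its own mouse is not stated either, and the p-values then rest on the spread between these libraries, part of which may be technical.

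Most siglecs dampen activation: a tyrosine motif in the cytoplasmic tail recruits the phosphatases Ptpn6 and Ptpn11 once sialic acid is bound. Siglec1 (sialoadhesin, CD169) has no such motif and serves macrophages in adhesion and in the capture of sialylated particles, and Siglech signals through the adaptor Tyrobp. In mice Siglec1 marks tissue macrophages including Kupffer cells, the resident macrophages of the liver, whereas Siglecf is best known from eosinophils and alveolar macrophages, Siglece from neutrophils, monocytes and macrophages, Cd22 and Siglecg from B cells, and Siglech from plasmacytoid dendritic cells.

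Of the 7 genes, 6 lie on chromosome 7 in mm10, and Siglec1 lies on chromosome 2 at chr2:131069220-131086765 on the minus strand. Siglecf (chr7:43351341-43359531, plus strand), Siglecg (chr7:43408204-43418358, plus strand), Cd33 (chr7:43524216-43544428, minus strand) and Siglece (chr7:43651070-43660161, minus strand) follow each other within 308.8 kb. Cd22 (chr7:30865402-30880342, minus strand) and Siglech (chr7:55768178-55778925, plus strand) lie outside that cluster. The 250 bases before the RefSeq gene start (build GRCm38.p6) are shown for the 3 genes whose RNA differed between groups, and for Cd33, whose window shares a stretch with that of Siglecf. They are chr7:43351091-43351340 on the plus strand for Siglecf, and on the minus strand chr7:43660162-43660411 for Siglece, chr7:30879029-30879278 for Cd22 and chr7:43533172-43533421 for Cd33. The Cd22 and Cd33 windows lie inside the annotated genes, just before the transcripts Cd22-201 and Cd33-203. Other transcripts of both genes, among them Cd22-210, start elsewhere. Capitals mark the ETS core GGAAGT and the RUNX core TGTGGT.
Siglecf: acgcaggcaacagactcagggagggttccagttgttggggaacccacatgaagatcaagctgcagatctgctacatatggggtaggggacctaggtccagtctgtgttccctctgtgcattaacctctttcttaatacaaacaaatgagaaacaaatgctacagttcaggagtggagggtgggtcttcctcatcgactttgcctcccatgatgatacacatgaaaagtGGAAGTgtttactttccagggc
Siglece: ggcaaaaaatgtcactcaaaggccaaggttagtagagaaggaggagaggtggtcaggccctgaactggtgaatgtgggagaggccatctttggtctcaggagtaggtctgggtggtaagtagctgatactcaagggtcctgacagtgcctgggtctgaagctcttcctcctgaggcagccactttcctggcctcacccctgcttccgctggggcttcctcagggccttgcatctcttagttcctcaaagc
Cd22: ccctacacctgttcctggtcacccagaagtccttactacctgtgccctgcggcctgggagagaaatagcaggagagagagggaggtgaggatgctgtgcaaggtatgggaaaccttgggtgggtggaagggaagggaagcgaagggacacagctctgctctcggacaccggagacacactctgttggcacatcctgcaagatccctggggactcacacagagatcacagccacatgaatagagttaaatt
Cd33: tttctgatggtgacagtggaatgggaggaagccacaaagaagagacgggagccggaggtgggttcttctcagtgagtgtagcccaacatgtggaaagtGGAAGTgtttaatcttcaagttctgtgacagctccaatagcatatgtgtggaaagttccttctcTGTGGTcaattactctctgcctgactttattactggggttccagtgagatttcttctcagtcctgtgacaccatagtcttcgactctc

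The Siglecf and Cd33 windows shared the run AAAGTGGAAGTGTTTA of 16 bases, the longest run shared by any of the 15 pairs among the 6 members with a promoter sequence. Around it 24 of 28 aligned columns were identical. This run holds the ETS core, 22 bases before the start of Siglecf and 152 bases before that of Cd33. Both strands of 32851 promoter windows of the same length were searched for 5 motifs. The ETS core GGAAGT occurred in 19.7% of them, the RUNX core TGTGGT in 14.0%, the E-box CACGTG in 6.02% and the AP-1 site TGANTCA in 6.75%. The interferon-stimulated response element, searched as GAAA repeated after 2 bases of any kind, occurred in 2.98%. The windows of Siglece, Cd22 and Siglecg held none of these 5 strings, while that of Siglech held the ETS core, the RUNX core and the E-box. A match describes letters and shows no binding, and a window without one shows no lack of it.

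Library totals ran from 19489104 to 26196063 estimated counts. CCl4 4 and vehicle 2 stood apart from the other libraries, with the lowest totals, 23868 and 23025 genes detected against 19265 to 21670 in the other 6, and 3034 and 3094 CPM over 1737 olfactory and vomeronasal receptor genes against 607.2 to 1538. The mitochondrial share of counts was 0.763% to 1.16% in CCl4 libraries and 1.91% to 5.31% in vehicle libraries. Among the genes of the sort, Ptprc (CD45) and Adgre1 (F4/80) did not pass the test and Pecam1 (CD31) fell to 27.4 ± 2.86 CPM in CCl4, against 73.8 ± 21.3 in vehicle (log2 fold change -1.43). Kupffer cell markers fell in 8 of 9 cases in CCl4 and markers of monocyte-derived cells rose in 4 of 7. Over 15212 genes, 1358 were higher and 953 lower in CCl4 at an adjusted p under 0.05 (edgeR quasi-likelihood test, Benjamini-Hochberg), and the log2 fold changes of all genes had their median at -0.03.

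Of the 7 siglecs, Siglecf and Cd22 rose in CCl4 libraries, Siglece fell, and the other 4 did not pass the test. Of all tested genes 15.2% passed it, 8.93% as higher and 6.26% as lower. The same 3 siglecs were the ones whose CCl4 and vehicle libraries did not overlap, which held for 22.5% of all tested genes, 13.0% with CCl4 above vehicle and 9.49% with CCl4 below it. The median log2 fold change of the family was 0.02. Without CCl4 4 and vehicle 2 the family again had 2 genes higher and 1 lower. In bulk RNA, fewer cells of a type and less RNA per cell cannot be told apart, and this holds for every gene below.

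**Figure D1:**
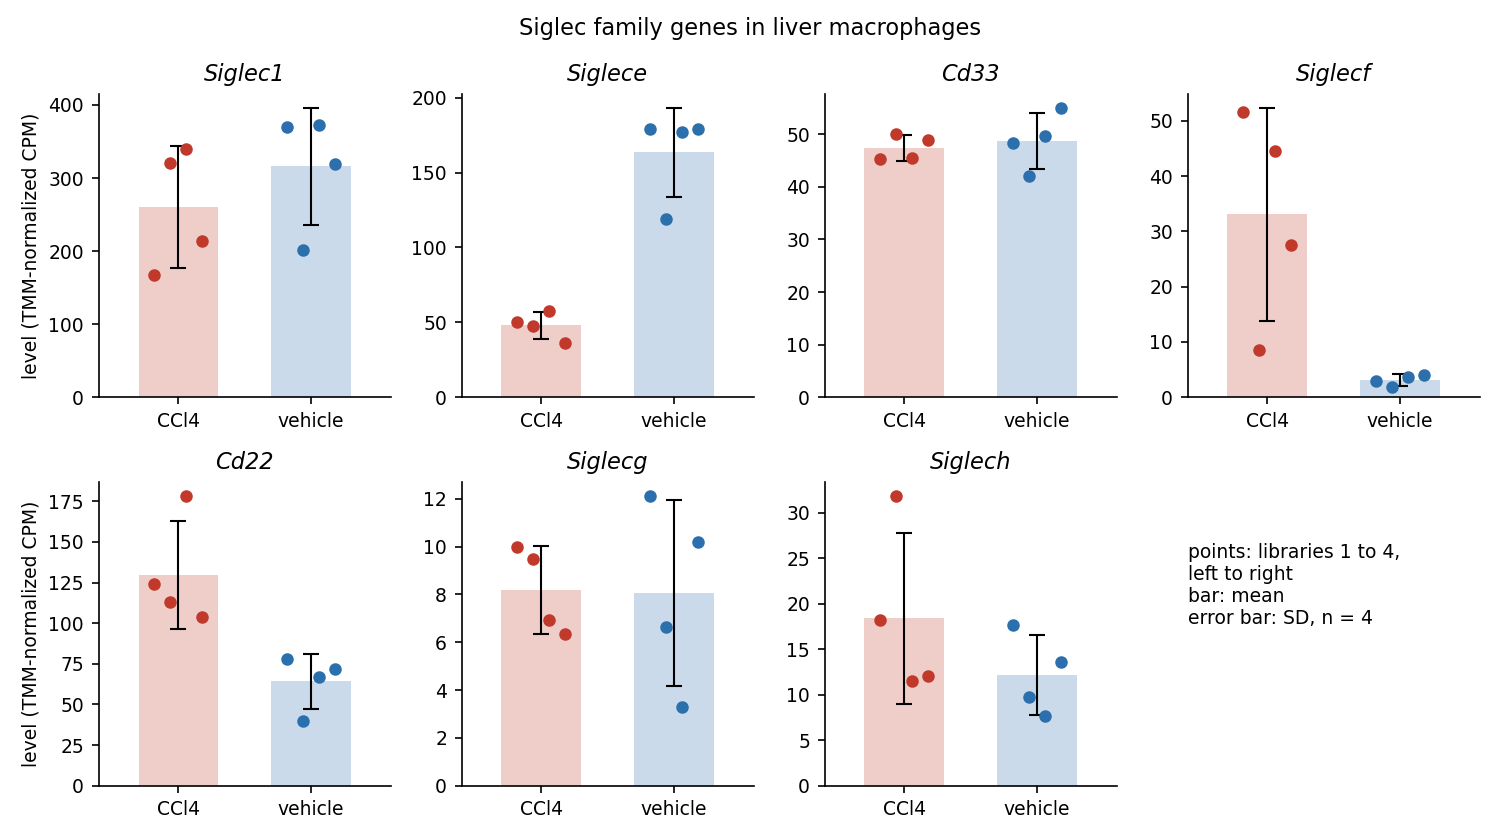
TMM-normalized CPM of the 7 siglecs, with CCl4 left of vehicle in each panel; points are libraries, bars are means and error bars SD (n = 4 each). Siglecf and Cd22 lie above vehicle and Siglece below it in every CCl4 library, and the points of the other 4 genes overlap.

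Siglecf showed the widest difference of the family. Its level was 51.7, 8.56, 44.6 and 27.5 CPM in CCl4 1 to 4, against 2.96, 1.77, 3.72 and 4.08 CPM in vehicle 1 to 4. Every CCl4 library was above every vehicle library, and CCl4 2 was well below the other 3 CCl4 libraries. The log2 fold change was 3.39 (SE 0.48, 95% interval 2.33 to 4.45, adjusted p = 0.00073), or 10.5-fold, from means of 33.1 ± 19.3 CPM in CCl4 and 3.13 ± 1.02 CPM in vehicle. Without CCl4 2 it was 3.72, and without CCl4 4 and vehicle 2 it was 3.28 (adjusted p = 0.00399). On the log2 scale of the deposited FPKM it was smaller, 2.40 with a pseudocount of 0.1 and 1.10 with a pseudocount of 1, and passed the test with both.

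In mice Siglecf on blood and tissue leukocytes is a marker of eosinophils, so eosinophil genes were read beside it. The granule genes Epx, Prg2, Prg3, Ear1 and Ear6 together had 2, 13, 3 and 17 counts in CCl4 1 to 4, against 15, 22, 5 and 11 counts in vehicle 1 to 4, and none of them passed the filter. At 2 to 22 counts a library these granule genes were near 0 in both groups, and the part of eosinophils in the Siglecf result was not tested. Of the other 2 genes of the list, Il5ra, a subunit of the IL-5 receptor, had 1.26 ± 0.68 CPM in CCl4 and 1.55 ± 0.68 CPM in vehicle. Ccr3, the eotaxin receptor, fell to 84.7 ± 32.0 CPM in CCl4, against 304.2 ± 57.9 CPM in vehicle (log2 fold change -1.84, adjusted p = 0.000578). The summed level of the 7 eosinophil genes, which is nearly all Ccr3, was 59.5 to 128.4 CPM in CCl4 and 245.1 to 370.2 CPM in vehicle.

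The genes whose log2 CPM over the 8 libraries lay closest to Siglecf were Dlg3, Psap and Lrrc32, at root mean square distances of 0.231, 0.382 and 0.405 around each gene's own mean, where Siglecf itself had a spread of 1.76. Psap, the precursor of the lysosomal saposins, had 10400, 4600, 12200 and 8850 CPM in CCl4 1 to 4, against 1110, 675, 1460 and 1320 CPM in vehicle 1 to 4. Psap was chosen for its closeness to Siglecf over these libraries, so the low CCl4 2 they share is part of that choice. Lrrc32, a surface protein that holds latent TGF-beta, had 74.7, 10.4, 47.7 and 30.5 CPM in CCl4, against 5.93, 4.18, 5.46 and 8.72 CPM in vehicle. Dlg3, a scaffold protein of cell junctions, was low throughout, at 7.53 ± 4.10 CPM in CCl4 and 0.85 ± 0.41 CPM in vehicle, and its change did not pass the test on FPKM (adjusted p = 0.0559 and 0.0677 with pseudocounts of 0.1 and 1).

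Itgax, the integrin CD11c of dendritic cells and of recruited and alveolar macrophages, also had its lowest CCl4 value in CCl4 2. It had 333.8, 82.9, 299.4 and 156.4 CPM in CCl4 1 to 4, against 15.1 to 21.7 CPM in vehicle (log2 fold change 3.62, adjusted p = 0.000142). In each of the other 6 markers of monocyte-derived cells CCl4 2 was above CCl4 1. Ccr2, the receptor by which monocytes leave the marrow, had 257.7 CPM in CCl4 2 and 199.1 CPM in CCl4 1. Chil3, a chitinase-like protein, had 82.9 CPM in CCl4 2 and 23.9 CPM in CCl4 1. The summed level of the 7 markers of monocyte-derived cells was 667.1 to 791.1 CPM in CCl4 and 182.5 to 299.7 CPM in vehicle (exact permutation p = 0.0286, the smallest that 4 against 4 libraries allow, and 0.0572 adjusted over 12 lists). The part of these cells in the Siglecf result was not tested.

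Cd22, an inhibitory receptor of B cells that other mouse macrophages such as microglia can also carry, had 124, 113, 178 and 104 CPM in CCl4 1 to 4, against 78.2, 39.6, 67.0 and 71.9 CPM in vehicle 1 to 4. The lowest CCl4 library stood above the highest vehicle library. This was a log2 fold change of 1.02 (SE 0.23, 95% interval 0.51 to 1.52, adjusted p = 0.0114), or 2.02-fold, from means of 129.9 ± 33.0 CPM in CCl4 and 64.2 ± 17.0 CPM in vehicle. Without CCl4 4 and vehicle 2 it was 0.93 (adjusted p = 0.00553). The call ended on the deposited FPKM, where the log2 fold change was 0.97 with a pseudocount of 0.1 (adjusted p = 0.0694) and 0.76 with a pseudocount of 1 (adjusted p = 0.0617).

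None of 9 B cell genes rose with Cd22 by edgeR, DESeq2 or limma-voom, beside 8.93% of all tested genes higher by edgeR. At an unadjusted p under 0.05 none was higher and 4 were lower. Their summed level was 164.6 to 425.7 CPM in CCl4 and 125.0 to 299.7 CPM in vehicle (exact permutation p = 0.857). Ighm made up most of it in all libraries but vehicle 1 and vehicle 3, and none of the 9 was at 0 in every library. Ighm had 195.4 ± 107.2 CPM in CCl4 and 115.2 ± 57.95 CPM in vehicle (log2 fold change 0.76, adjusted p = 0.279). Of the 9 log2 fold changes 2 were above 0 and 7 below. The part of B cells in the Cd22 result was not tested. Cd79b, a signalling chain of the B cell antigen receptor, fell to 29.6 ± 7.53 CPM in CCl4, against 44.8 ± 2.02 CPM in vehicle (log2 fold change -0.60, adjusted p = 0.0462), a call that was lost without CCl4 1, 3 or 4 and without vehicle 1, 3 or 4 (adjusted p of 0.0854 to 0.11), on both FPKM scales, with the replicate number as a block (adjusted p = 0.0579) and without CCl4 4 and vehicle 2 (adjusted p = 0.0619). The genes closest to Cd22 over the 8 libraries were Coro1c, an actin-binding protein, Mpeg1, a pore-forming protein of macrophages, and Acox3, a peroxisomal oxidase, at distances of 0.105, 0.109 and 0.113 against a spread of Cd22 of 0.618. Mpeg1 had 2370 ± 329.7 CPM in CCl4 and 1205 ± 357.1 CPM in vehicle. In both Mpeg1 and Cd22 vehicle 2 was the lowest of all libraries, which is part of the choice by closeness.

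**Figure D2:**
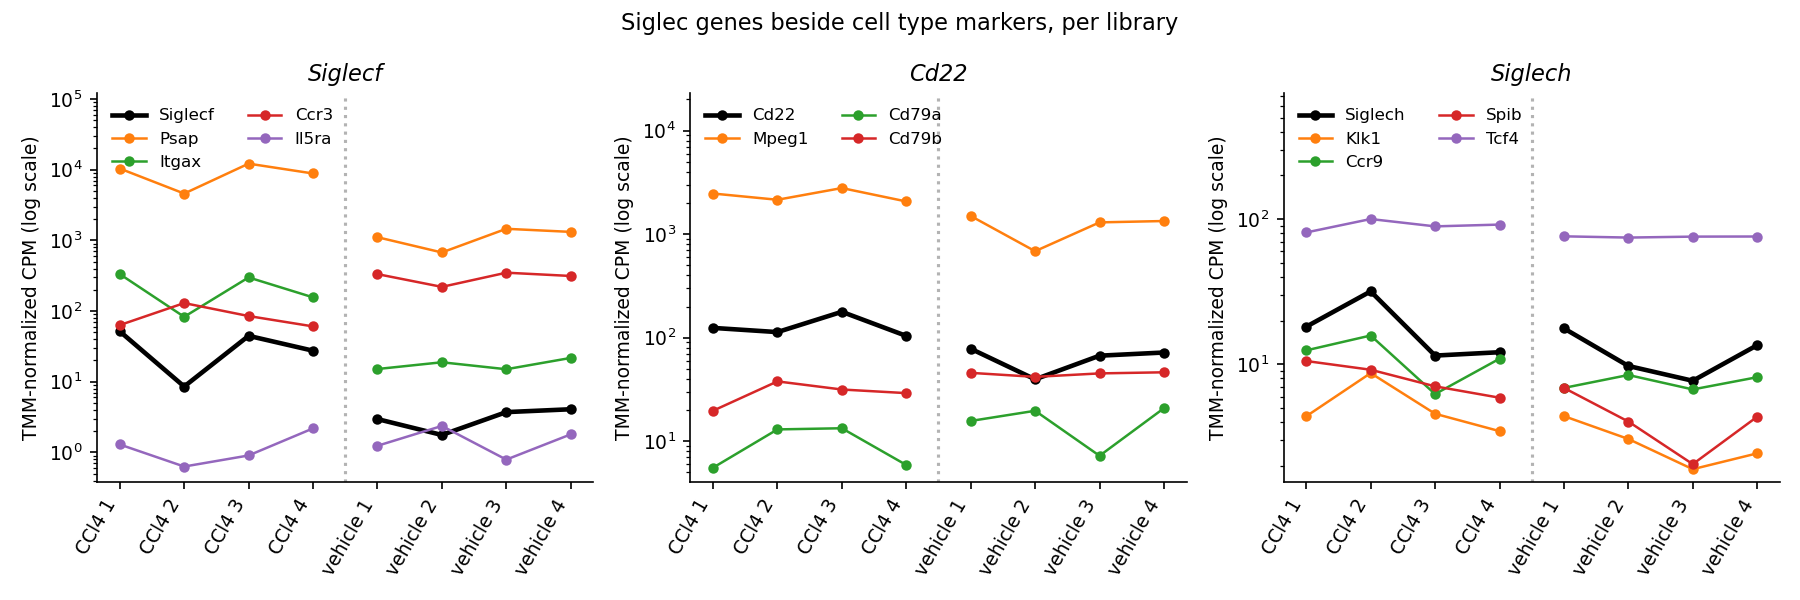
TMM-normalized CPM on a log axis in each library, CCl4 left of vehicle, for Siglecf, Cd22 and Siglech (black) beside marker and neighbouring genes; lines join libraries of a group only to guide the eye. Siglecf dips in CCl4 2 together with Itgax and with Psap, which was chosen for its closeness to Siglecf, but not with Ccr3. Il5ra, low throughout, also has its lowest CCl4 value in CCl4 2, at 0.63 CPM against 0.91 to 2.19 CPM in the other CCl4 libraries. Cd22 lies above Cd79a in every library and above Cd79b in all but vehicle 2. Ighm, the most abundant gene of the B cell list, is not shown and lies above Cd22 in all but vehicle 3.

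Cd22 counts were spread over several annotated transcripts, and the added counts in CCl4 were assigned mainly outside the transcript Cd22-201. Cd22-201 had 61.8, 51.1, 32.4 and 63.0 CPM in CCl4 1 to 4, against 47.2, 35.4, 43.5 and 47.5 CPM in vehicle 1 to 4, and the groups overlapped. All other Cd22 transcripts together had 62.5, 62.2, 145 and 40.8 CPM in CCl4, against 31.0, 4.13, 23.5 and 24.4 CPM in vehicle, with no overlap. Most of this was assigned to Cd22-210, a protein-coding transcript that starts further downstream, at 47.9 ± 25.0 CPM in CCl4 and 12.6 ± 7.13 CPM in vehicle. The share of Cd22 counts in Cd22-201 was 43.4% ± 18.0 in CCl4 and 70.2% ± 13.1 in vehicle, a difference that did not pass the test (exact permutation p = 0.0571, adjusted p = 0.4 over the 7 members). Cd22-201 has 642 bases and Cd22-210 has 342 bases found in no other Cd22 transcript, and the assignment of the remaining reads is an estimate.

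**Figure D3:**
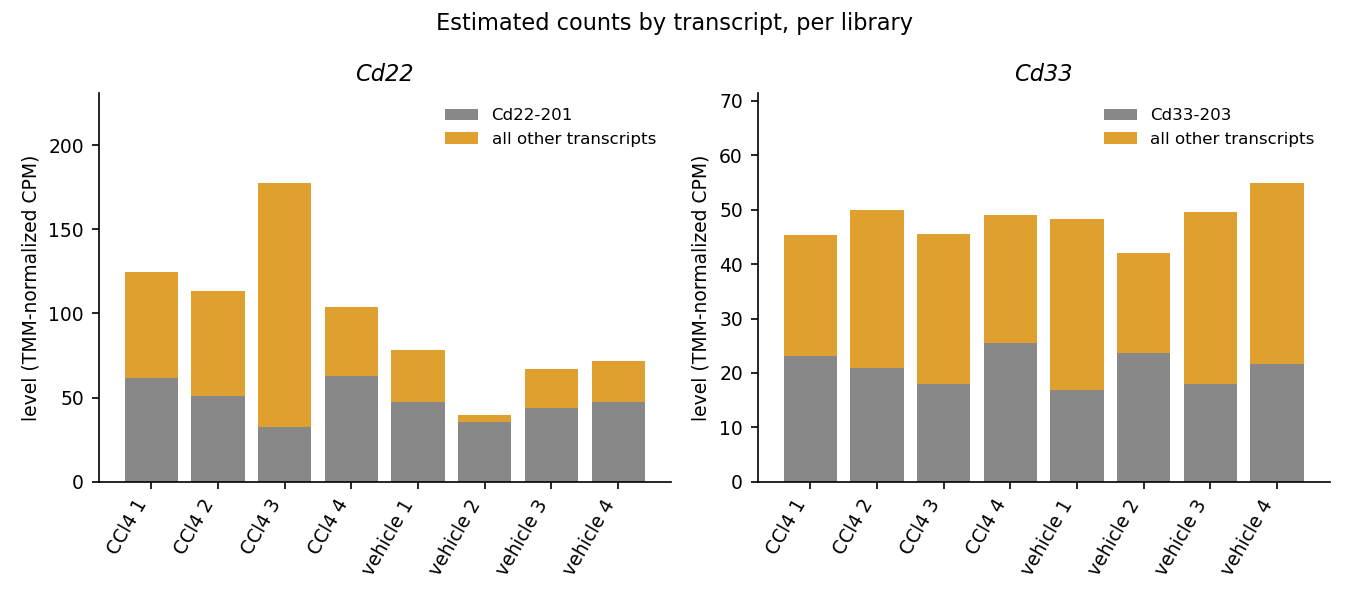
Estimated counts of Cd22 and Cd33 per library in TMM-normalized CPM, CCl4 left of vehicle, split into the most counted transcript (grey) and all others (orange). The orange part of Cd22 is 40.8 CPM or more in CCl4 and 31.0 CPM or less in vehicle, while both parts of Cd33 overlap between groups.

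Siglece, an inhibitory siglec of mouse myeloid cells, was the one member that fell. It had 50.5, 47.3, 57.8 and 36.1 CPM in CCl4 1 to 4, against 179, 119, 177 and 179 CPM in vehicle 1 to 4. The groups were far apart, and vehicle 2 was below the other 3 vehicle libraries. Siglece had a log2 fold change of -1.77 (SE 0.19, 95% interval -2.19 to -1.35, adjusted p = 0.000139), from means of 47.9 ± 9.01 CPM in CCl4 and 163.4 ± 29.6 CPM in vehicle, so that vehicle was 3.41 times as high. Without CCl4 4 and vehicle 2 it was -1.79 (adjusted p = 4.82e-05). Nearly all Siglece counts were assigned to Siglece-201, 97.2% in CCl4 and 97.6% in vehicle.

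Siglece fell beside 8 of 9 Kupffer cell genes and 6 of 7 endothelial genes. Neutrophil genes and 4 of 7 markers of monocyte-derived cells went the other way. Of all tested genes 6.26% were lower and 8.93% higher. The 9 Kupffer cell markers summed to 5867 to 10960 CPM in CCl4 and 18110 to 27390 CPM in vehicle (exact permutation p = 0.0286, adjusted p = 0.0572). Among them Clec4f, a Kupffer cell lectin, had a log2 fold change of -1.72, Timd4, a receptor for phosphatidylserine on dying cells, -2.45, and Cd163, the haemoglobin scavenger receptor, -3.26. The 11 neutrophil genes summed to 248.9 to 460.9 CPM in CCl4 and 109.9 to 244.2 CPM in vehicle, with 6 of 11 higher in CCl4. That count was 3 without CCl4 1 or without vehicle 3, and 9 without CCl4 4 and vehicle 2. The part of any of these cell types in the Siglece level was not tested. The genes closest to Siglece over the 8 libraries were Epn2, an endocytic adaptor, P4ha2, a collagen prolyl hydroxylase, and Mpzl1, a surface protein that binds Ptpn11, at distances of 0.132, 0.138 and 0.142 against a spread of 0.918, with log2 fold changes of -1.78, -1.74 and -1.76.

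Siglec1 was the most counted siglec and did not pass the test. It had 167, 321, 340 and 214 CPM in CCl4 1 to 4, against 370, 202, 373 and 319 CPM in vehicle 1 to 4. Each group held high and low libraries, and the lowest were CCl4 1, vehicle 2 and CCl4 4. The log2 fold change was -0.28 (SE 0.26, adjusted p = 0.543), and -0.36 without CCl4 4 and vehicle 2 (adjusted p = 0.316). Siglec1 is known as an interferon-inducible gene, and the part of interferon in its level was not tested. Of 17 interferon-stimulated genes 2 fell and none rose in CCl4 by edgeR, beside 6.26% lower and 8.93% higher of all tested genes. None was higher by DESeq2 or limma-voom or at an unadjusted p under 0.05, and DESeq2 had 4 lower. Their log2 fold changes were below 0 in 15 genes, with a median of -0.39. The 17 genes summed to 1593 to 2176 CPM in CCl4 and 2355 to 3651 CPM in vehicle (exact permutation p = 0.0286, adjusted p = 0.0572). On TMM-normalized CPM the sums were 1468 to 2365 in CCl4 and 2205 to 3760 in vehicle, with an overlap (exact permutation p = 0.0857, adjusted p = 0.147). The count of 2 was 1 without CCl4 2 or 4 and without vehicle 1 or 4, and 4 on library size alone, with upper-quartile scaling and with the replicate block. The chemokine Cxcl10 had 81.2 ± 33.2 CPM in CCl4 and 206.6 ± 32.8 CPM in vehicle (log2 fold change -1.35, adjusted p = 0.00506). The genes closest to Siglec1 were Slc25a10, a mitochondrial dicarboxylate carrier, Keap1, the repressor of Nrf2, and Exosc10, an exosome nuclease, and none of these passed the test.

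Cd33 varied least. It had 45.3, 50.0, 45.4 and 49.0 CPM in CCl4 1 to 4, against 48.3, 42.1, 49.6 and 55.0 CPM in vehicle 1 to 4, and the groups overlapped throughout. Cd33 had a log2 fold change of -0.04 (SE 0.13, adjusted p = 0.883), with a 95% interval of -0.32 to 0.24. Among its transcripts Cd33-202, which starts furthest upstream, had 4.26, 9.59, 6.74 and 4.15 CPM in CCl4 1 to 4, against 13.4, 9.42, 13.7 and 13.2 CPM in vehicle 1 to 4, with an overlap between CCl4 2 and vehicle 2. Mag, the myelin-associated siglec next to Cd22 at a gap of 18.8 kb, was not a member of the set and had 24.5 ± 3.73 CPM in CCl4 and 23.8 ± 2.43 CPM in vehicle (adjusted p = 0.889). Siglec15 did not pass the filter, with 0, 1, 3 and 0 counts in CCl4 and 0 counts in every vehicle library.

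Siglech, the Tyrobp-coupled siglec of plasmacytoid dendritic cells, had 18.2, 31.8, 11.5 and 12.1 CPM in CCl4 1 to 4, against 17.7, 9.75, 7.71 and 13.6 CPM in vehicle 1 to 4. CCl4 2 was the highest library and the others overlapped. Its log2 fold change was 0.60 (SE 0.34, adjusted p = 0.288). CCl4 2 was also the highest library for 6 of 8 plasmacytoid dendritic cell markers, among them Klk1 at 8.71 CPM and Ccr9 at 15.8 CPM. The 8 markers of that cell type summed to 98.3 to 144.4 CPM in CCl4 and 96.1 to 108.2 CPM in vehicle (exact permutation p = 0.143). On TMM-normalized CPM the sums were 116.2 to 147.2 in CCl4 and 90.8 to 102.1 in vehicle, with no overlap. The exact permutation p was then 0.0286 (adjusted p = 0.0572). All 8 log2 fold changes were above 0, with a median of 0.61, and 4 genes were higher at an unadjusted p under 0.05. The part of these cells in the Siglech level was not tested. By edgeR 1 of 8 passed the test as higher, beside 8.93% of all tested genes. This was Runx2, a transcription factor that other cells also use, with a log2 fold change of 1.21 and 6.80 ± 2.30 CPM in CCl4, against 2.93 ± 0.84 CPM in vehicle. Runx2 no longer passed without CCl4 1 or 4 and without vehicle 3 or 4 (adjusted p of 0.0512 to 0.0599), without CCl4 4 and vehicle 2 (adjusted p = 0.0511) and with length-scaled TPM counts (adjusted p = 0.563), and its direction turned on FPKM. The genes closest to Siglech were Klra17, a lectin-like receptor gene, Cxcr6, a chemokine receptor of lymphocytes, and Klk1, at distances of 0.21, 0.278 and 0.303 against a spread of 0.588.

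Siglecg, an inhibitory siglec of B cells, was the least counted member in CCl4. It had 9.99, 9.50, 6.93 and 6.33 CPM in CCl4 1 to 4, against 12.1, 6.64, 3.28 and 10.2 CPM in vehicle 1 to 4. The vehicle libraries spanned the CCl4 range. Siglecg had a log2 fold change of 0.02 (SE 0.35, adjusted p = 0.977), and its sign turned with the scaling, at -0.10 on library size alone and -0.06 with upper-quartile scaling. Between the protein-coding transcript Siglecg-201 and Siglecg-206, annotated as a retained intron, Siglecg-206 had more estimated counts in CCl4 2, 3 and 4 and in vehicle 4, and Siglecg-201 in the other 4 libraries.

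Per transcript length, Siglec1 had the highest mean of the siglecs in CCl4 libraries and Siglece in vehicle libraries. In CCl4 libraries the mean TPM was 50.5 ± 14.0 for Siglec1, 45.2 ± 8.09 for Cd22, 38.3 ± 3.58 for Siglece, 25.6 ± 2.77 for Cd33, 17.0 ± 9.22 for Siglecf, 13.0 ± 6.38 for Siglech and 3.00 ± 0.691 for Siglecg. The ranges of neighbours in that order overlapped except between Siglece and Cd33 and between Siglech and Siglecg. In vehicle libraries it was 134 ± 31.0 for Siglece, 63.3 ± 17.5 for Siglec1, 29.6 ± 7.32 for Cd33, 22.6 ± 7.05 for Cd22, 8.53 ± 3.42 for Siglech, 3.50 ± 1.71 for Siglecg and 1.80 ± 0.773 for Siglecf. There the ranges of Cd33 and Cd22, of Cd22 and Siglech, and of Siglecg and Siglecf overlapped. The summed TPM of the 7 genes was 192.5 ± 17.6 in CCl4 and 263.7 ± 64.1 in vehicle, with vehicle 2 at 169.3 below every CCl4 library. Of that sum, Siglece made up 19.9% ± 2.02 in CCl4 and 51.1% ± 1.59 in vehicle, Cd22 23.4% ± 2.74 in CCl4 and 8.42% ± 0.869 in vehicle, and Siglecf 8.99% ± 5.07 in CCl4 and 0.66% ± 0.162 in vehicle. These shares are tied to each other, so a lower share of Siglece raises those of the other members.

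**Figure D4:**
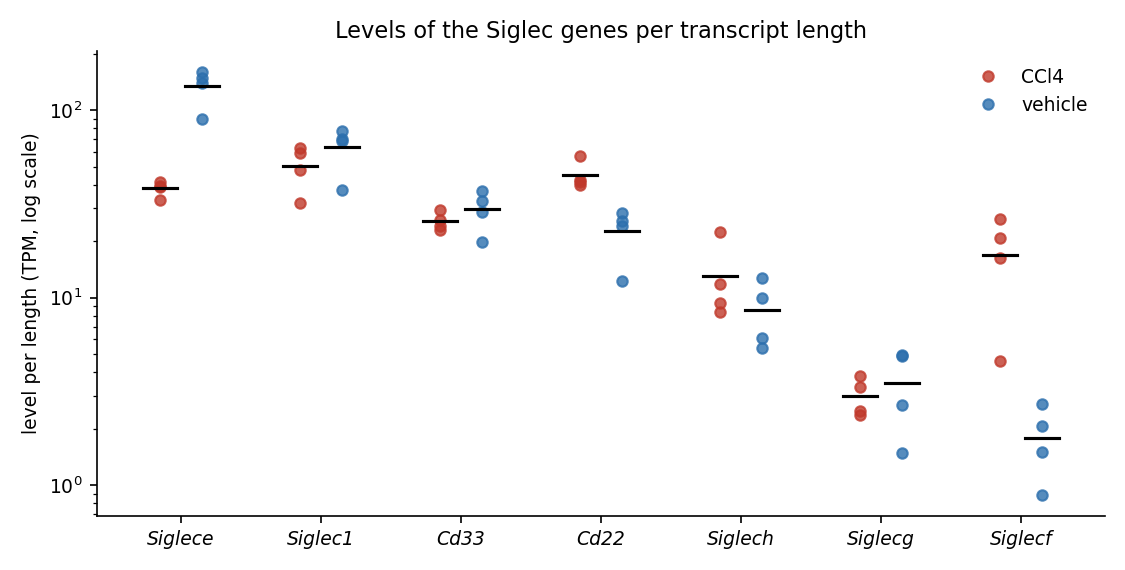
TPM of the 7 siglecs on a log axis, with CCl4 left of vehicle for each gene; points are libraries and lines are means (n = 4 each). Genes are ordered by their vehicle mean, and Siglecf, the lowest gene in vehicle at 1.80 TPM, reaches 17.0 TPM in CCl4.

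Among 15 genes that carry siglec signals, 2 rose, none fell and 13 did not pass the test by edgeR, beside 15.2% of all tested genes that passed it. DESeq2 had 1 lower, and the median log2 fold change was 0.10. Inppl1, an inositol phosphatase, had 51.3 ± 10.0 CPM in CCl4 and 25.6 ± 8.40 CPM in vehicle (log2 fold change 1.00, adjusted p = 0.0201). Syk, the tyrosine kinase that acts downstream of Tyrobp, had 426.1 ± 66.3 CPM in CCl4 and 239.8 ± 68.6 CPM in vehicle (log2 fold change 0.83, adjusted p = 0.0223). The Inppl1 call ended without CCl4 1 or 3 (adjusted p = 0.0538 and 0.0565), with length-scaled TPM counts and on FPKM, and that of Syk without CCl4 1 or vehicle 3 or 4 (adjusted p of 0.0602 to 0.0672) and on FPKM with a pseudocount of 0.1. The phosphatases Ptpn6 and Ptpn11 had log2 fold changes of -0.14 and 0.04, and Tyrobp, the most counted gene of the list, had 1330 ± 196.6 CPM in CCl4 and 1239 ± 95.3 CPM in vehicle. None of these 3 passed the test.

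Sialyltransferases attach sialic acid and so shape what siglecs can bind. Of 20 sialyltransferase genes 19 were tested, and 4 rose, 3 fell and 12 did not pass the test, beside 8.93% higher and 6.26% lower of all tested genes. Their median log2 fold change was -0.05. St8sia4, a polysialyltransferase, had 104.2 ± 26.4 CPM in CCl4 and 27.9 ± 7.64 CPM in vehicle (log2 fold change 1.90, adjusted p = 0.000271). St6galnac6 had 21.2 ± 3.65 CPM in CCl4 and 8.55 ± 1.10 CPM in vehicle (log2 fold change 1.31, adjusted p = 0.000426). The other 2 that rose, St3gal1 and St6galnac4, had log2 fold changes of 0.69 and 0.74 (adjusted p = 0.0273 and 0.0418). The call of St3gal1 ended without CCl4 1, 2 or 3 or vehicle 3 (adjusted p of 0.0558 to 0.0876) and with the replicate block (adjusted p = 0.0566), and that of St6galnac4 without CCl4 1, 2 or 3 or vehicle 1, 3 or 4 (adjusted p of 0.0576 to 0.0967), on library size alone and on FPKM.

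Among those that fell, St6galnac2 had 16.5 ± 4.76 CPM in CCl4 and 68.0 ± 14.9 CPM in vehicle (log2 fold change -2.04, adjusted p = 0.000165). St3gal6 had 21.4 ± 3.04 CPM in CCl4 and 57.9 ± 8.36 CPM in vehicle (log2 fold change -1.44, adjusted p = 0.000159). St3gal5, which makes the ganglioside GM3, had 246.2 ± 30.0 CPM in CCl4 and 443.9 ± 80.9 CPM in vehicle (log2 fold change -0.85, adjusted p = 0.00615). St6gal1, which makes the ligand preferred by Cd22 on B cells, had 43.1 ± 9.18 CPM in CCl4 and 44.7 ± 13.7 CPM in vehicle and did not pass the test. St8sia6, which in mice makes disialic acid bound by Siglece, was low at 1.34 ± 0.63 CPM in CCl4 and 3.44 ± 1.48 CPM in vehicle (adjusted p = 0.0626).

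None of the 9 genes for the synthesis, transport and modification of sialic acid passed the test by edgeR, while 1 was higher by DESeq2, by limma-voom and without vehicle 2. Nans at a log2 fold change of -0.34 and Siae, the esterase that removes acetyl groups from sialic acid, at 0.69 had unadjusted p of 0.0378 and 0.0112. Of 4 tested genes of sialic acid removal and lysosomal export 1 rose, Slc17a5, the lysosomal exporter of sialic acid, at 65.1 ± 3.60 CPM in CCl4 and 43.9 ± 3.76 CPM in vehicle (log2 fold change 0.57, adjusted p = 0.00936). That call ended on FPKM (adjusted p = 0.158 and 0.153). Of 4 genes for proteins that carry siglec ligands, none passed the test by edgeR, 2 were higher by DESeq2, 1 by limma-voom and 2 at an unadjusted p under 0.05. Cd24a, a ligand of Siglecg in mice, came closest at 17.4 ± 6.23 CPM in CCl4 and 8.39 ± 3.89 CPM in vehicle (adjusted p = 0.0594).

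**Figure D5:**
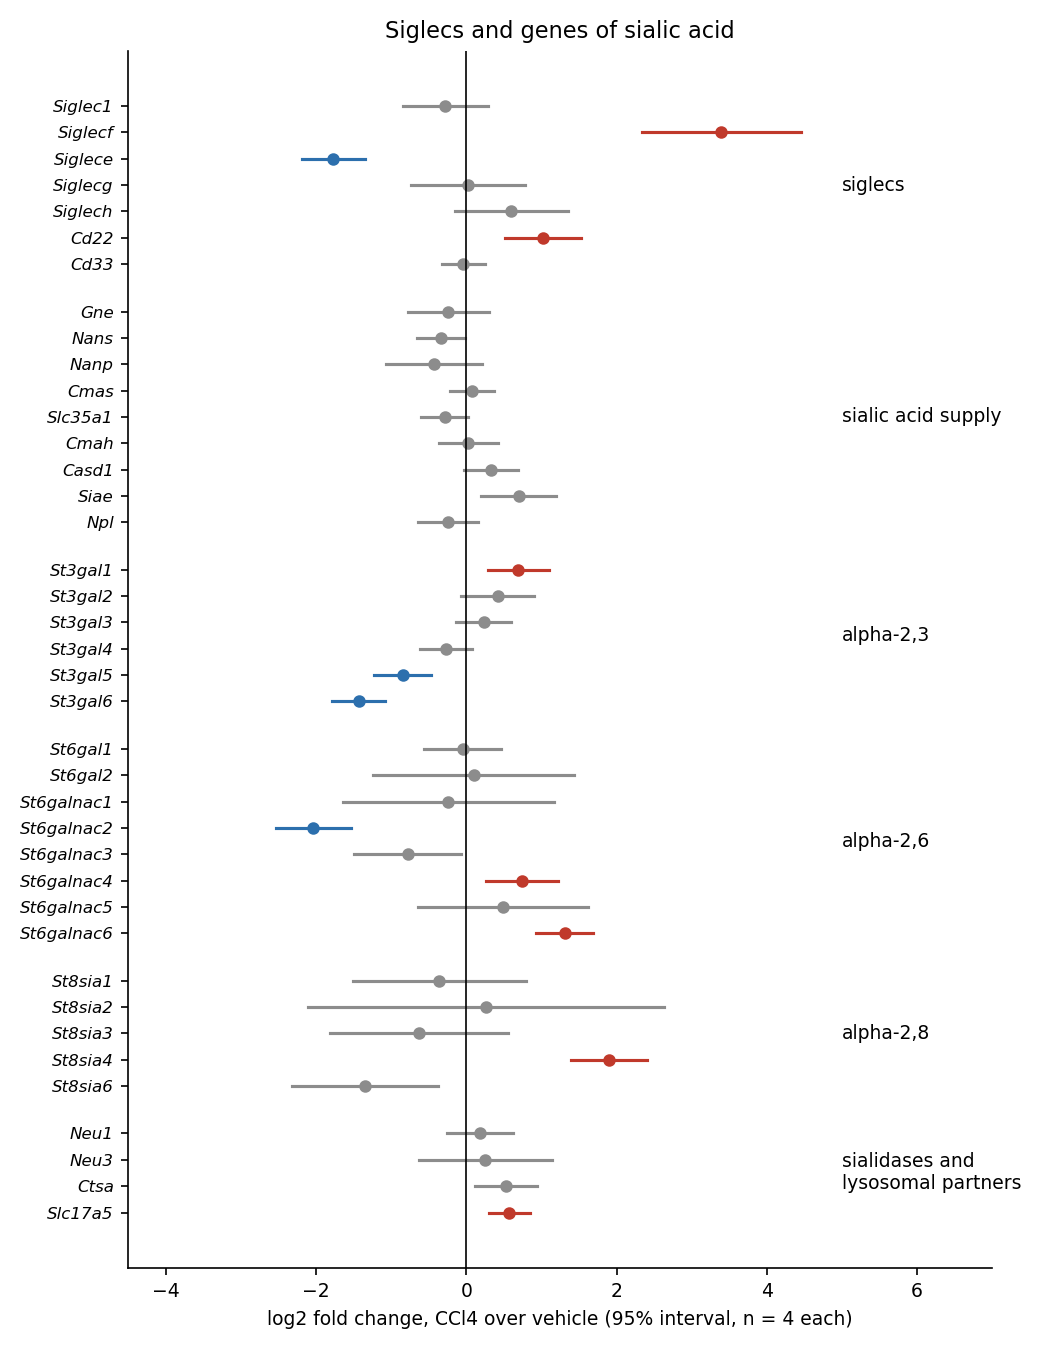
Log2 fold changes of CCl4 over vehicle with 95% intervals (n = 4 each) for the 7 siglecs and the tested genes of sialic acid supply, transfer and removal, with red for genes that rose, blue for genes that fell and grey for genes that did not pass the test. The interval of Siglecf starts at 2.33, above the log2 fold change of every other gene shown.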

How the data were processed

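Each library had a table of estimated counts, TPM and lengths per transcript, deposited by the authors. The tools named per the submitters' processing notes are edgeR, limma and kallisto, and the build is mm10; versions and transcript release are not stated in the sources used here. The estimated counts deposited by the authors are not normalized between samples. TPM, also deposited by the authors, is scaled to a fixed total within a library and per transcript length. The FPKM per gene deposited by the authors served as an alternative, with no account of its making in the sources used here. The effective lengths deposited by the authors entered the length-scaled TPM counts. The labels' protocols name no step that marks the strand, so reads of Cd22 and of the antisense gene Gm29439, which overlaps it by 601 bases and was listed at 0 in every library, cannot be told apart.

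Estimated counts were summed per gene with GENCODE M21 by transcript identifiers without version, rounded, and filtered with filterByExpr (minimum count 10, minimum total 15). Of 117494 transcripts 116405 matched, 13 of them also in version, so the authors' transcript models can differ. Groups came from the treatment labels. The comparison of CCl4 with vehicle used the quasi-likelihood test of edgeR with TMM factors (edgeR 4.0.16, R 4.3.3), group as the sole term, two-sided, over all 15212 genes, with Benjamini-Hochberg adjustment at 0.05. Levels are TMM-normalized CPM, while sums over a marker list are CPM of the library total unless stated otherwise. Values after ± are SD with n = 4 per group. The SE is the absolute log2 fold change over the square root of the F statistic. Sums over 12 marker lists and transcript shares of 7 genes were compared by two-sided exact permutation tests over 70 splits. The test was tried on simulated counts first.

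The members, gene lists and tests were chosen with earlier results of these data known. Genes named from a list are those past the test with the smallest p, up to 4 a list, and the most abundant gene. Other list genes named with a textbook role (such as Ptpn6, St6gal1, St8sia6, Siae, Cd24a, Il5ra, Ccr9 and Klk1) were chosen after their values were seen. The values of some other list genes are not reported here. The 3 genes closest to each member are those with the smallest root mean square difference of centred log2 CPM (prior count 2). Alternatives were library size alone, upper-quartile and RLE scaling, DESeq2 1.42.0, limma-voom 3.58.1, no filter, length-scaled TPM counts, log2 FPKM with pseudocounts of 0.1 and 1, a replicate block, each library left out, and both CCl4 4 and vehicle 2 left out. Promoter windows are from RefSeq, with 6 of 7 members matched by symbol.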

Additional observations from a re-analysis of the deposited data

Results flagged for a closer look

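Siglece in vehicle 2 stood apart from the other vehicle libraries, at 119 CPM against 177 to 179 CPM, with a gap to its nearest neighbour of 0.964 of the range of the group. It was the 1 outlying library among 52 groups of 4 looked at. Where chance gives about 1 in 20 groups, 1 of 52 is no more than that. Vehicle 2 also had the second-lowest total and the highest mitochondrial share, 5.31%, and was the lowest of the vehicle libraries for Siglec1, Siglecf, Cd22 and Cd33. The part of these in its Siglece level was not tested. Every CCl4 library, at 36.1 to 57.8 CPM, was below vehicle 2, and the log2 fold change without CCl4 4 and vehicle 2 was -1.79.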

How the results depend on the processing

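Siglecf passed the test as higher and Siglece as lower under every alternative run, at log2 fold changes of 1.10 to 3.72 and of -1.92 to -1.64. Cd22 passed it under all but the FPKM alternatives (0.974 and 0.761 with pseudocounts of 0.1 and 1), so that 1 member was higher on FPKM with either pseudocount. On FPKM 635 and 619 genes were higher. On library size alone 1431 were lower, with 43.1% of calls higher, against 58.8% in the main test, and the median of all genes was -0.155 against -0.029. Siglecg, which passed no test, turned to -0.0994 on library size alone, -0.0637 with upper-quartile scaling, -0.188 with length-scaled TPM counts and -0.319 and -0.126 on FPKM. The cause was not tested. The share of Siglech-201 turned to -1.06 percentage points when taken from TPM.

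With each library left out, the genes lower in CCl4 were 578 to 1163 (578 without CCl4 1) and those higher 1004 to 1503. The log2 fold change was -0.236 to 0.299 for Siglecg, -0.104 to 0.0258 for Cd33, -0.0262 to 0.134 for Mag, -0.115 to 0.291 for Ablim1, -0.338 to 0.16 for Lax1, -0.135 to 0.149 for Nkg7 and -0.118 to 0.0479 for Zzz3, and none of these 7 passed the test.

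Genes that turned sign, none past the test in either direction except Runx2 in the main test, had these log2 fold changes. On library size alone they were -0.0972 for Mag, -0.0577 for Ablim1, -0.0584 for Cmas, -0.153 for Nkg7 and -0.0364 for Tyrobp. With upper-quartile scaling they were -0.0501 for Mag, -0.0172 for Ablim1, -0.0194 for Cmas and -0.105 for Nkg7. On FPKM, with pseudocounts of 0.1 and 1, they were -0.17 and -0.112 for Mag, -0.0667 and -0.0569 for Cmas, 0.0213 and 0.00745 for Lax1, -0.0358 and -0.0245 for Nkg7, -0.363 and -0.109 for Runx2, -0.177 and -0.177 for Tyrobp and 0.222 and 0.0994 for Zzz3. With length-scaled TPM counts they were -0.0185 for Mag, 0.0246 for Lax1 and -0.0803 for Nkg7, with limma-voom 0.0578 for Lax1, and with no filter 0.0119 for Zzz3.

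Libraries of the same replicate number had correlations of 0.0152, -0.241, 0.0387 and -0.169 between their deviations, and no CCl4 library correlated best with the vehicle library of its own number, so the numbers were not taken as pairs. With the replicate number as a block, 1281 genes were higher and 829 lower, and the members were at 3.22 for Siglecf, -1.77 for Siglece, 1.03 for Cd22, -0.299 for Siglec1, 0.53 for Siglech, 0.144 for Siglecg and -0.0343 for Cd33, with the same 3 past the test. Cd79b, St3gal1, Reln, Clec9a and S100a8 lost their calls under it (adjusted p of 0.0566 to 0.0798). Lax1 turned to 0.0361 and Nkg7 to -0.00493 under that block.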

Other observations

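Values of the cell types whose marker sums were not given above were as follows. The 7 endothelial genes summed to 192.8 to 244.0 CPM in CCl4 and 459.0 to 826.4 CPM in vehicle, and 6 of 7 fell. The 6 stellate cell genes summed to 113.1 to 517.2 CPM over both groups, with 2 higher and 2 lower. That lower count was 1 without CCl4 1, 2 or 3, without vehicle 2 or 4, with limma-voom, length-scaled TPM counts, FPKM or the replicate block, where the call of Reln was lost. The 5 hepatocyte genes summed to 38.2 to 72.1 CPM in CCl4 and 67.4 to 98.3 CPM in vehicle, the 7 T and NK cell genes to 26.6 to 36.1 CPM in CCl4 and 20.7 to 44.4 CPM in vehicle, and the 6 genes of conventional dendritic cells to 113.1 to 251.0 CPM in CCl4 and 72.1 to 153.3 CPM in vehicle.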
